A study of Mus musculus with 7 samples.

Results

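Emx1, Fezf2, Lhx2, Neurod1, Neurod2, Neurod6, Tbr1, Prdm8 and Bhlhe22 encode transcription factors of pallial projection neurons, the glutamatergic neurons of the dorsal forebrain. The 9 genes were taken by symbol from the 55414 genes of the deposited table, and all 9 were among the 20420 genes that passed the low-count filter. The group was selected on symbol with the male over female fold changes of these same libraries already known, so differences between the sexes are described here and not tested.

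The RNA came from medial amygdala of 7 mice labelled Trap-Ai9, a pair of alleles that the submitters elsewhere call TRAP2-Ai9 and that turns on a lasting red fluorescent protein in cells whose Fos promoter is active around a tamoxifen dose. Per the sample labels tamoxifen was swallowed by the 3 females when 6 weeks old and by the 4 males on postnatal day 24, and tissue was taken at 2 months; the design text names day 24 only. Sex, the age at tamoxifen and the interval from tamoxifen to death therefore cannot be told apart. The labelled area, called DIMPLE by the submitters, was dissected from slices of both hemispheres, so each library is a bulk mixture of labelled and unlabelled cells.

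The pallium is the part of the embryonic forebrain that forms the cortex, the hippocampus and the basolateral amygdala. Its projection neurons are built by a cascade in which homeobox factors such as Emx1 and Lhx2 set the region, basic helix-loop-helix factors of the Neurod family carry differentiation, and Fezf2 and Tbr1 separate classes of output neuron. Bhlhe22 binds DNA and recruits Prdm8 as a repressor. The medial amygdala, in contrast, holds many GABAergic neurons of subpallial origin beside glutamatergic ones.

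Library totals lay between 29049604 counts (male replicate 1) and 46494588 counts (male replicate 3), and the share of DIMPLE in the piece was 20 to 25% in females and 18 to 40% in males, lowest in male replicate 2. The GABAergic list (Gad1, Gad2, the Dlx genes and others, 16 genes) summed to 1477 to 2451 CPM in females and 1074 to 1988 CPM in males, where CPM are read counts brought to a common library size with TMM factors. All 16 passed the filter on low counts. The 14 markers of pallial glutamatergic neurons summed to 1823 to 1994 CPM in females and 2527 to 3858 CPM in males. The myelin gene Mbp stood at 4742 CPM in male replicate 3 and at 638 to 1792 CPM in the other 6 libraries. The columns of male replicates 1 and 2 begin with mv and those of 3 and 4 with mb, which the labels do not explain.

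Promoter sequences were read from RefSeq (GRCm38.p6) for 8 of the 9 genes, as the 250 bases before each annotated start. The 4 shown belong to Emx1 and Prdm8, the genes with the highest male over female ratios, and to Neurod6 and Tbr1, the pair for which males and females overlapped. Capitals mark the E-box CANNTG, the site class bound by Neurod and Bhlhe factors, and the homeodomain core TAATTA. Both motifs read the same on either strand, except that the inner bases of an E-box may differ. The Emx1 window lies at chr6:85187681-85187930 (plus strand), that of Prdm8 at chr5:98180619-98180868 (plus), that of Neurod6 at chr6:55681264-55681513 (minus) and that of Tbr1 at chr2:61804203-61804452 (plus).
Emx1: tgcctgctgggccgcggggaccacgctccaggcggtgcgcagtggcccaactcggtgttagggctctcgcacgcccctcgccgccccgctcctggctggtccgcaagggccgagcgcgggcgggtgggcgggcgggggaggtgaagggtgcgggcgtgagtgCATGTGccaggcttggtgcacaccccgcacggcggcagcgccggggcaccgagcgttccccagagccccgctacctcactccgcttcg
Prdm8: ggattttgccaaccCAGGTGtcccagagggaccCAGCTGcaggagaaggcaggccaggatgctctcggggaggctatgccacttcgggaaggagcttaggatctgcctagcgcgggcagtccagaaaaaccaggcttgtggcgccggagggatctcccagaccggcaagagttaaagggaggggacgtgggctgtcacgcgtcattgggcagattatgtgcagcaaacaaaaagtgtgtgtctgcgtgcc
Neurod6: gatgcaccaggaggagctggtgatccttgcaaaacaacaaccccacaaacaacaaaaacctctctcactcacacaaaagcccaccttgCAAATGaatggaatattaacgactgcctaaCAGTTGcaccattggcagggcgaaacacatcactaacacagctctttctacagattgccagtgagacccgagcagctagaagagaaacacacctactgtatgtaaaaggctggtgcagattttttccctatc
Tbr1: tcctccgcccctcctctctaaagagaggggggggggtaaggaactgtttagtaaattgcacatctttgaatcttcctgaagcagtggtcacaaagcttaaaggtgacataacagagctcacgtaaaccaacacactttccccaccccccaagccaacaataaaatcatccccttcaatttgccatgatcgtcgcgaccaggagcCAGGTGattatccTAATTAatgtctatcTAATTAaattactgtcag

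An E-box stood in 6 of the 9 windows of these 8 genes, and in 66.2% of the 32851 promoters of the same length. The 6 windows belonged to Emx1, Neurod1, Neurod2, Neurod6, Tbr1 and Prdm8. Lhx2 had 2 windows, and neither these nor the Fezf2 window held an E-box. Neurod2 had 3 E-boxes, of which 1 was CAGATG. That site or its reverse complement CATCTG was found in 14.4% of all promoters and in no other window of these genes. Neurod1 and Neurod2 each held CATATG, found in 3.46% of all promoters. TAATTA stood in the Tbr1 window alone among these genes, at 2 places 33 and 18 bases before the start, and in 4.84% of all promoters. These are matches of letters only.

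The homeobox gene Emx1 (ENSMUSG00000033726, chromosome 6, 85164420 to 85181444 in the table's GRCm39 coordinates) had the widest separation. Its level was 0.587, 0.619 and 0.573 CPM in female replicates 1 to 3, from 27, 20 and 27 reads, and 4.45, 1.89, 5.36 and 8.48 CPM in male replicates 1 to 4. Every male stood above every female, and the 3 females were nearly equal. At so few reads counting error is large, so this near equality does not show that the animals were even. The means were 0.593 ± 0.0237 CPM (SD, n = 3) in females and 5.05 ± 2.72 CPM (SD, n = 4) in males, a log2 fold change, male over female, of 3.09 ± 0.50 (SE).

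Lhx2, a LIM homeobox factor (ENSMUSG00000000247, chromosome 2), was the most even of the 9 across males. It stood at 22.4, 31.1 and 26.0 CPM in the females and at 48.1, 43.2, 60.1 and 80.2 CPM in the males. The sexes did not overlap, and male replicate 2 was here only slightly below male replicate 1. The log2 fold change was 1.13 ± 0.24 (SE), the second smallest of the group.

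Among the Neurod factors, Neurod2 (ENSMUSG00000038255, chromosome 11), which acts in maturing and adult pyramidal neurons, stood at 5.91, 4.46 and 6.56 CPM in females and at 34.5, 8.58, 26.6 and 53.0 CPM in males. Neurod1 (ENSMUSG00000034701, chromosome 2), an earlier differentiation factor, stood at 4.39, 3.37 and 5.56 CPM in females and at 16.5, 5.98, 14.2 and 28.2 CPM in males. For both genes male replicate 2 lay just above the highest female and male replicate 4 was the highest library. The log2 fold changes were 2.44 ± 0.51 (SE) for Neurod2 and 1.87 ± 0.45 for Neurod1. Neurod1 overlaps Cerkl on the same strand in the table's coordinates, and Cerkl held 338 reads over the 7 libraries, 11% of the Neurod1 total.

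Neurod6 (ENSMUSG00000037984, chromosome 6), another Neurod factor of pyramidal neurons, departed from this order. It stood at 2.41, 2.17 and 5.52 CPM in females and at 26.2, 2.78, 5.84 and 7.40 CPM in males. The sexes overlapped, since male replicate 2 fell between the females, and male replicate 1 was the highest library by a wide margin. The mean of 10.6 ± 10.6 CPM (SD, n = 4) in males rests on that library, and the log2 fold change of 1.64 ± 0.70 (SE) was 0.67 without it. Relative to Neurod2, Neurod6 stood at 0.759 in male replicate 1, against 0.140 in male replicate 4, 0.220 in male replicate 3 and 0.324 in male replicate 2, and at 0.408 to 0.841 in the females.

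**Figure D1:**
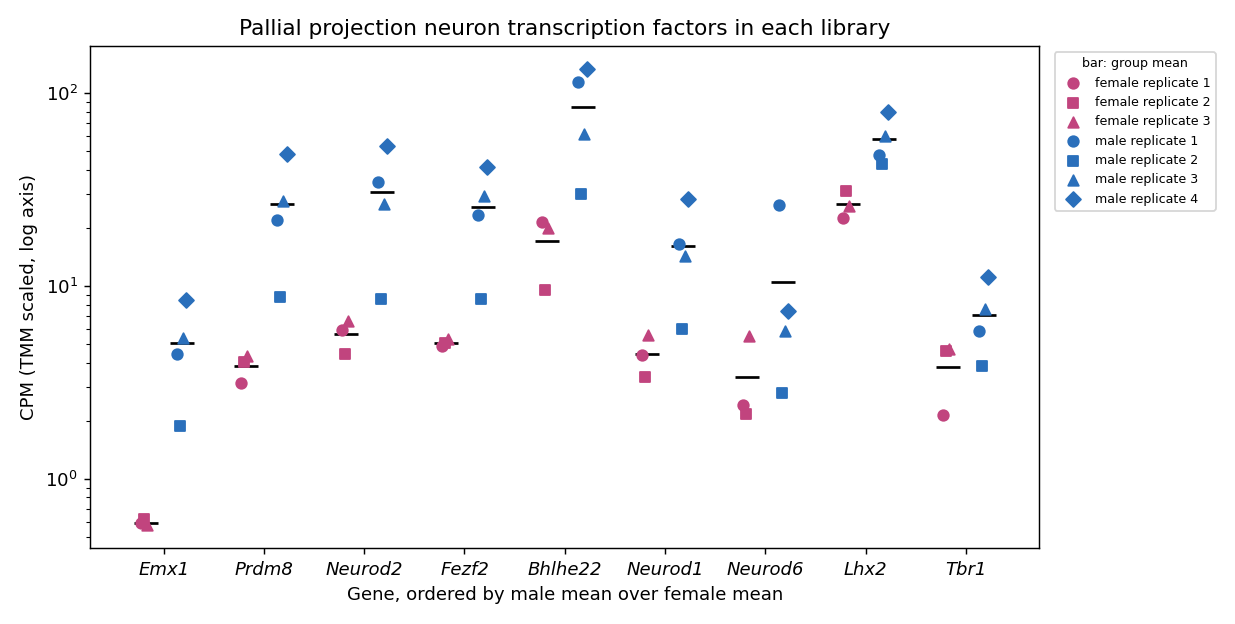
CPM (log axis) of the 9 genes in each of the 7 libraries, females in pink and males in blue, with the marker shape giving the replicate and the bar the group mean. Every male lies above every female for 7 genes; Neurod6 and Tbr1 overlap, and male replicate 2 is the lowest male throughout.

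The projection class factors differed from each other. Fezf2 (ENSMUSG00000021743, chromosome 14), which directs deep-layer neurons to project to the brainstem and spinal cord, stood at 4.87, 5.04 and 5.28 CPM in females and at 23.4, 8.58, 29.2 and 41.7 CPM in males. Its log2 fold change was 2.34 ± 0.45 (SE), with females nearly equal and no overlap. Tbr1 (ENSMUSG00000035033, chromosome 2), a T-box factor of early-born deep-layer and corticothalamic neurons, stood at 2.15, 4.61 and 4.71 CPM in females and at 5.85, 3.83, 7.62 and 11.2 CPM in males. Here male replicate 2 lay below female replicates 2 and 3, and the log2 fold change of 0.90 ± 0.41 (SE) was the smallest of the group. The ratio of Tbr1 to Fezf2 CPM was 0.442 to 0.914 in females and 0.250 to 0.446 in males, so male replicate 2 overlapped the females by a small margin.

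The repressor pair Bhlhe22 and Prdm8 both separated the sexes. Prdm8 (ENSMUSG00000035456, chromosome 5) stood at 3.13, 4.05 and 4.33 CPM in females and at 22.0, 8.77, 27.6 and 48.6 CPM in males, a log2 fold change of 2.80 ± 0.50 (SE). Bhlhe22 (ENSMUSG00000025128, chromosome 3) stood at 21.6, 9.56 and 20.0 CPM in females and at 115, 29.9, 61.3 and 134 CPM in males, a log2 fold change of 2.31 ± 0.50 (SE). No male fell among the females for either gene, but the order of libraries was not shared. In female replicate 2 Bhlhe22 was at its lowest while Prdm8 was not, and in male replicate 1 Bhlhe22 was close to its highest value while Prdm8 was below male replicate 3. The ratio of Bhlhe22 to Prdm8 therefore ran from 2.22 in male replicate 3 to 6.90 in female replicate 1, with the sexes overlapping.

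Over the group, 9 of 9 genes had a higher estimate in males (52.3% of all genes tested did), 8 had an estimate of at least 1 log2 unit (3% of all), and for 7 every male lay above every female (2.54% of all). By edgeR's quasi-likelihood test 0 of 9 had an adjusted p under 0.05 (0.0245% of all genes), and 8 of 9 had an unadjusted p under 0.05 (4.71% of all in either direction, and 2.68% with the higher level in males). The authors' deposited table marked 7 of 9 as higher in males at an adjusted p under 0.1 (0.364% of its genes with an adjusted p, and 0.496% in either direction), all but Neurod6 and Tbr1. DESeq2 1.42.0 also called 7, with 132 calls over the whole table (0.827% of genes given an adjusted p), and limma-voom 0, with 6 calls (0.0294%). edgeR without male replicate 2 called 4, with 26 calls in all (0.127%), and edgeR with the 2 males whose columns begin with mb called 4, with 48 calls in all (0.227%). These shares describe how the genes were chosen, since the choice was made with the same contrast known. In bulk tissue more cells of a type and more RNA per cell cannot be told apart.

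The median log2 fold change of the 9 was 2.31, against 0.01 over all genes tested. Within males the coefficient of variation ran from 28.4% for Lhx2 to 100% for Neurod6, with a median of 56.4%, and within females from 3.99% for Emx1 to 55.5% for Neurod6, with a median of 19.1%. The female value of Emx1 rests on 20 to 27 reads per library, too few to measure how even the animals were. Male replicate 2 was the lowest male for all 9 genes, and male replicate 4 was the highest library for 8 of them, the exception being Neurod6. Male replicates 1, 3 and 4 lay above every female for all 9. Over the mean of the females, Emx1 was 3.19-fold in male replicate 2 and 14.3-fold in male replicate 4, Lhx2 1.63-fold and 3.02-fold, and Tbr1 1.00-fold and 2.92-fold.

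**Figure D2:**
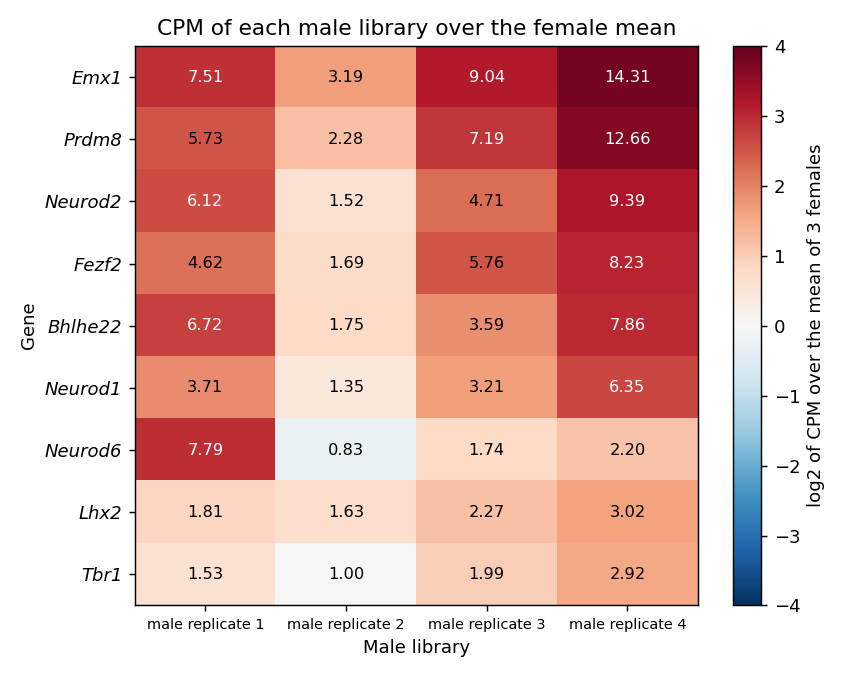
CPM of each male library (columns) divided by the mean of the 3 females, for each gene (rows), printed in the cell and coloured on a log2 scale with red above 1. Male replicate 2 is the palest column, and Neurod6 alone peaks in male replicate 1, at 7.79.

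Per kilobase of annotated exon (GENCODE M21, all exons of a gene merged), levels of different genes can be set side by side only roughly. The annotation release used for counting is not given, so the order of genes with close values may depend on this choice. In females the order was Lhx2 (6.03 ± 0.99 CPM per kb, SD, n = 3), Bhlhe22 (5.10 ± 1.96), then Neurod2, Fezf2, Neurod1 and Neurod6 (1.80, 1.66, 1.63 and 1.57), then Prdm8, Tbr1 and Emx1 (0.790, 0.697 and 0.271). Lhx2 and Bhlhe22 did not differ beyond their spread, nor did the 4 genes of the middle group. Within libraries, Neurod2 was nevertheless above Neurod1 in each of the 3 females. In males Bhlhe22 led (25.4 ± 14.3 CPM per kb, SD, n = 4), before Lhx2 (13.2 ± 3.75), Neurod2 (9.76 ± 5.86), Fezf2 (8.44 ± 4.51), Neurod1 (5.95 ± 3.36), Prdm8 (5.51 ± 3.41), Neurod6 (4.91 ± 4.93), Emx1 (2.31 ± 1.25) and Tbr1 (1.30 ± 0.57). The ranges of mean ± SD of neighbours in the male order overlapped, although Emx1 was above Tbr1, and Fezf2 above Neurod1, in each of the 4 males. Emx1 was the lowest gene in females and Tbr1 the lowest in males.

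Across the libraries the genes varied together to unequal degrees. Over the 36 pairs the Pearson correlation of log2 CPM across the 7 libraries ranged from 0.49 to 0.99 with a median of 0.91, and the Spearman correlation had a median of 0.86. Females and males lie apart, so these values also hold the sex difference. After subtracting each sex's mean the median Pearson correlation was 0.77, which leaving out male replicate 2 or 4 brought to 0.61 or 0.69. The median Spearman correlation within sex was 0.66. All points share the same 7 libraries and their scaling, and no p is attached to them.

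Within sex the closest pairs were Emx1 with Fezf2 and Neurod1 with Neurod2 (r = 0.99 each), and Prdm8 with Emx1 and with Fezf2 (0.98 each), over 7 libraries. Neurod1 and Neurod2 stood at 0.92 to 0.95 with Emx1, Fezf2 and Prdm8, and at 0.92 and 0.93 with Bhlhe22. The weakest pair was Lhx2 with Neurod6 (0.02), and the 8 pairs that involve Neurod6 ranged up to 0.72, with Bhlhe22. Lhx2 with Bhlhe22 stood at 0.33, while Lhx2 with Tbr1 stood at 0.91.

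Slc17a7 encodes the vesicular glutamate transporter of pallial glutamatergic neurons and served as a common denominator for the 9 genes. Its level was 48.8, 55.9 and 88.7 CPM in females and 405, 145, 442 and 793 CPM in males. Prdm8 per Slc17a7 was 0.0642, 0.0725 and 0.0488 in females and 0.0543, 0.0605, 0.0624 and 0.0612 in males, so that the ratio overlapped fully between the sexes and varied little among males. The mean log2 ratio in males minus that in females was -0.04 for Prdm8, 0.30 for Emx1, -0.41 for Neurod2, -0.42 for Bhlhe22 and -0.47 for Fezf2. For these 5 genes the sexes overlapped in the ratio.

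Tbr1, Lhx2, Neurod6 and Neurod1 moved further from Slc17a7. The difference of mean log2 ratios was -1.73 for Tbr1, -1.51 for Lhx2, -1.32 for Neurod6 and -0.91 for Neurod1. Tbr1 per Slc17a7 lay at 0.0441 to 0.0825 in females and at 0.0141 to 0.0264 in males, without overlap, and Neurod1 at 0.0604 to 0.0900 and 0.0322 to 0.0413, also without overlap. For Lhx2 male replicate 2 (0.298) lay beside female replicate 3 (0.293). Neurod6 per Slc17a7 was 0.0646 in male replicate 1, above every female, and 0.00933 to 0.0192 in the other males, below every female.

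**Figure D3:**
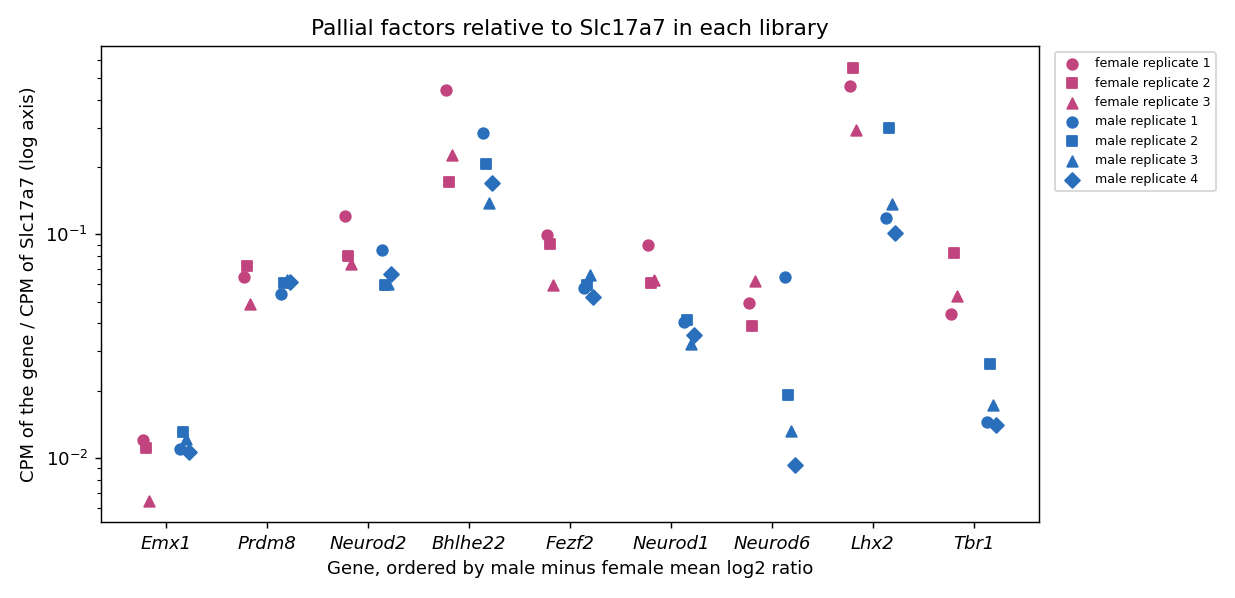
Ratio of each gene's CPM to that of Slc17a7 (log axis) in each library, females in pink and males in blue, with genes ordered by male minus female mean log2 ratio. Prdm8 in males lies between 0.0543 and 0.0624, whereas Tbr1 in males lies below every female.

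The rule for the 9 genes names no value of percent DIMPLE, whose slope was fitted with sex in the model; since earlier results of these libraries were known, the slopes are not independent of the choice. The slope estimate per 10 percentage points was above 0 for all 9 genes, as for 51.6% of all genes tested. By edgeR's quasi-likelihood test, by DESeq2 and by limma-voom alike, 0 of 9 passed an adjusted p of 0.05, and 0% of all genes tested did. The steepest slopes were those of Neurod6 (1.29 ± 0.37 log2 units per 10 points, SE, adjusted p = 0.897) and Bhlhe22 (0.83 ± 0.35, adjusted p = 0.897), which were the 2 genes with an unadjusted p under 0.05 (4.54% of all genes had one). Lhx2 (0.02 ± 0.22, adjusted p = 0.992) and Tbr1 (0.10 ± 0.41, adjusted p = 0.973) had the flattest. The median slope was 0.55, against 0.01 over all genes.

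The slopes depended on single libraries. Without male replicate 1, which had the highest share of DIMPLE (40%), the Neurod6 slope was 0.63, while that of Emx1 went from 0.51 to 1.20, that of Fezf2 from 0.59 to 1.31 and that of Prdm8 from 0.45 to 1.24. Without male replicate 2, which had the lowest share (18%), the slopes of Emx1, Fezf2, Lhx2, Neurod1, Neurod2, Tbr1 and Prdm8 were below 0. Only Neurod6 (1.33) and Bhlhe22 (0.18) stayed above 0 there.

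With percent DIMPLE in the model the male over female log2 fold change was 0.08 for Neurod6 against 1.64 without it. It was 2.64 for Emx1, 2.38 for Prdm8, 1.80 for Fezf2, 1.70 for Neurod2, 1.56 for Bhlhe22, 1.36 for Neurod1, 1.11 for Lhx2 and 0.81 for Tbr1. With only the males whose columns begin with mb it was 3.55 for Emx1, 1.30 for Tbr1 and 0.98 for Neurod6, and with only those that begin with mv 2.39, 0.32 and 2.07.

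Close relatives of the 9 by gene family were present at mixed levels. Of 14 listed, 8 were tested, 0 passed by edgeR (4 higher and 2 lower at an unadjusted p under 0.05) and 1, Lhx9, by DESeq2. In all 6 had higher and 2 lower estimates in males, and the median log2 fold change was 0.52. The proneural gene Neurog1, the T-box genes Eomes and Tbx21, Neurod4, Bhlhe23 and Atoh1 were below the low-count filter. Lhx9, a LIM homeobox gene related to Lhx2, stood at 3.04, 1.42 and 2.10 CPM in females and at 22.7, 5.07, 20.3 and 29.8 CPM in males (log2 fold change 3.15 ± 0.56, SE, adjusted p = 0.327 by edgeR). Fezf1, the paralogue of Fezf2 known from the hypothalamus and olfactory system, had the opposite sign, with 3.94 ± 2.36 CPM (SD, n = 3) in females and 1.53 ± 0.461 CPM (SD, n = 4) in males (log2 fold change -1.37 ± 0.42, adjusted p = 0.774 by edgeR). Emx2, the paralogue of Emx1, stood at 8.17 ± 1.66 and 13.4 ± 3.44 CPM, with the sexes overlapping at male replicate 2 (9.16 CPM).

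Other transcription factors of pallial projection neurons did not all move with the 9. Of 32 listed and tested, 0 passed by edgeR (7 higher and 1 lower at an unadjusted p under 0.05) and 5 by DESeq2, all higher in males: Bcl11b, Nfix, Zbtb18, Zfpm2 and Nr4a2. Of the 32, 22 had higher and 10 lower estimates, and the median log2 fold change was 0.15. Bcl11b, a zinc finger factor of deep-layer output neurons that striatal neurons also express, averaged 22.2 ± 5.05 CPM in the females and 86.1 ± 46.9 CPM in the males (log2 fold change 1.95 ± 0.41, SE). Zbtb18, a repressor needed for the differentiation of cortical neurons, stood at 43.6 ± 5.43 and 126 ± 51.1 CPM (1.53 ± 0.33), and Zfpm2, a cofactor found in corticothalamic neurons, at 9.40 ± 0.484 and 25.9 ± 11.2 CPM (1.46 ± 0.33). The nuclear factor gene Nfix, which glia also express, stood at 75.2 ± 1.20 and 132 ± 28.5 CPM (0.81 ± 0.19). Adjusted p-values of these 4 ranged from 0.469 to 0.503 by edgeR.

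Partners and inhibitors of the encoded proteins varied less. Of 12 tested, 0 passed by edgeR (5 higher and 1 lower at an unadjusted p under 0.05) or by DESeq2; 7 had higher and 5 lower estimates, with a median log2 fold change of 0.28. Among the E proteins with which Neurod factors dimerise, Tcf4 averaged 198 ± 39.2 CPM in the females and 271 ± 38.6 CPM in the males, Tcf12 at 32.8 ± 3.05 and 44.2 ± 5.70 CPM, and Tcf3 at 30.3 ± 4.57 and 28.7 ± 2.53 CPM. Id3, an inhibitor of such dimers, stood at 37.6 ± 1.22 and 54.0 ± 9.06 CPM. Lmo1, a LIM-only protein of the class that competes for the cofactors of LIM homeobox factors, stood at 11.8 ± 1.10 and 19.4 ± 4.90 CPM, and Lmo2 at 11.6 ± 1.19 and 18.4 ± 5.30 CPM. Ldb1 and Ldb2, the cofactors that LIM homeobox factors bind, had lower estimates in males, with 112 ± 11.8 and 89.5 ± 10.1 CPM for Ldb1, where every male lay below every female, and 41.5 ± 7.45 and 29.8 ± 5.09 CPM for Ldb2. Over all 12 genes the estimates lay between -0.48 (Ldb2) and 0.77 (Id1) log2 units. Ldb1, Ldb2 and Id1 were named after their values were seen.

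Genes reported in mouse as controlled by one of the 9 factors were taken as a further list. Of 9 tested, 0 passed by edgeR (5 higher and 0 lower at an unadjusted p under 0.05) and 3 by DESeq2 (Bcl11b, Crym and Slc17a7, all higher in males). The estimates were higher for 8 and lower for 1, and their median was 0.60 log2 units. Cdh11, a cadherin gene repressed by the Bhlhe22 and Prdm8 complex, averaged 32.6 ± 8.17 CPM in the females and 34.9 ± 2.84 CPM in the males (0.10 ± 0.19, adjusted p = 1.00 by edgeR), with overlap. Crym, a thyroid hormone binding protein of deep-layer neurons whose expression depends on Fezf2, stood at 54.4, 25.0 and 41.2 CPM in females and at 196, 51.5, 115 and 272 CPM in males, where male replicate 2 lay below female replicate 1. Auts2, a target of Tbr1, stood at 59.4 ± 12.2 and 89.7 ± 26.5 CPM. The log2 fold changes were 1.98 ± 0.51 (SE) for Crym and 0.60 ± 0.24 for Auts2, with adjusted p-values of 0.586 and 0.969 by edgeR.

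**Figure D4:**
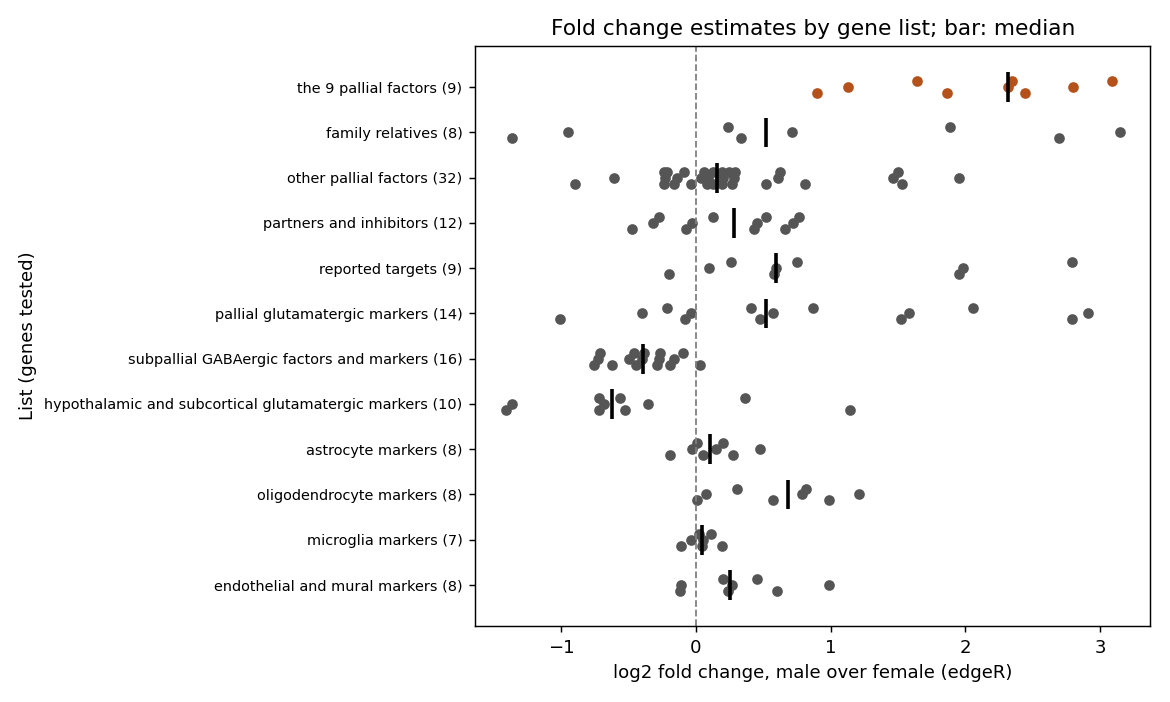
Male over female log2 fold change of every tested gene (points) of each list, with the median as a bar and the number of genes tested in brackets. The 9 pallial factors (orange) lie between 0.90 and 3.09, and 15 of the 16 GABAergic genes lie below 0.

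Markers of other cell types are given beside these values. In the GABAergic list 15 of 16 estimates were lower in males and 0 passed by edgeR (0 higher and 3 lower at an unadjusted p under 0.05) or DESeq2, with a median log2 fold change of -0.39. Slc32a1, the vesicular GABA transporter, stood at 112, 119 and 87.4 CPM in females and at 48.4, 101, 63.2 and 45.9 CPM in males, overlapping through male replicate 2. In the glutamatergic list for regions outside the pallium 8 of 10 tested genes had lower estimates and 0 passed by edgeR (1 higher and 2 lower at an unadjusted p under 0.05) or DESeq2, with a median of -0.62. Otp, a homeobox factor of hypothalamic and medial amygdala neurons, stood at 6.55 ± 2.46 and 2.47 ± 1.33 CPM. Slc17a6 of the same list overlapped between the sexes, at 25.3 to 63.3 CPM in females and 16.9 to 45.1 CPM in males. Barhl2 had the opposite sign to Otp, at 0.334 ± 0.0709 and 0.735 ± 0.0574 CPM with every male above every female. Pallial markers had 9 higher and 5 lower estimates of 14, with a median of 0.52; 0 passed by edgeR (7 higher and 1 lower at an unadjusted p under 0.05) and 5 by DESeq2. Among the 5 were Rtn4rl2, a Nogo receptor family gene, at 1.43 ± 0.962 and 10.9 ± 7.45 CPM, and Nptx1, a neuronal pentraxin gene, at 95.5 ± 16.4 and 286 ± 138 CPM. Grp, a neuropeptide gene of the same list, named after its values were seen, had the opposite sign, at 8.82 ± 0.762 and 4.38 ± 1.74 CPM with every male below every female (log2 fold change -1.01 ± 0.32, SE, adjusted p = 0.792 by edgeR). Cdh9 (-0.40), Lmo3 (-0.21), Rspo2 (-0.08) and Cck (-0.04) were the other 4 with lower estimates. Male replicate 2, the lowest male for the 9 factors, had the highest sum of the GABAergic list among the males (1988 CPM). The sums were 1074, 1426 and 1106 CPM in male replicates 1, 3 and 4. Gad1 (605 CPM), Slc32a1 and Lhx6 (162 CPM) were also highest in male replicate 2 among the males. Not every gene of the list was: Lhx8, Sp9, Meis2 and Six3 were highest in male replicate 3 and Sp8 in male replicate 4.

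Of the glial and vascular markers 0 passed by edgeR or DESeq2, and only 2 oligodendrocyte genes, both higher in males, had an unadjusted p under 0.05 by edgeR. Summed levels were 3533 to 5455 CPM in females and 4272 to 5185 CPM in males for 8 astrocyte genes, 325 to 459 and 325 to 434 CPM for 7 microglial genes, and 65.0 to 125 and 98.8 to 183 CPM for 8 vascular genes. For 8 oligodendrocyte genes they were 1546 to 3409 and 2769 to 9105 CPM, with male replicate 3 highest, and 8 of 8 estimates were higher in males (median 0.68). No marker of any list was at 0 in every library. The part of these cell types in the differences of the 9 genes was not tested.

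The tested genes outside the 9 whose log2 CPM across the 7 libraries was most like the mean of the 9 were Scrt1 (r = 0.99), Cxcl12 (0.99), Slc17a7 (0.99), Dtl (0.99), Fam169b (0.99), Zbtb18 (0.99), Fgf5 (0.99), Olfml2b (0.99), Bin3 (0.99) and Hspa1b (0.99). After subtracting each sex's mean the same 10 had r between 0.96 and 0.98. They were picked for likeness in these same 7 libraries, so high values were largely fixed by the choice. Likeness of shape does not mean likeness of size: Scrt1, a neuronal zinc finger repressor, spanned 0.65 log2 units from lowest to highest library and Bin3 0.44, against 4.02 for Slc17a7. The chemokine gene Cxcl12 stood at 11.4, 9.19 and 14.9 CPM in females and at 56.3, 19.9, 57.2 and 75.7 CPM in males (log2 fold change 2.14 ± 0.40, SE). Fgf5, a fibroblast growth factor gene, stood at 0.450 ± 0.106 CPM (SD, n = 3) and 1.53 ± 0.771 CPM (SD, n = 4).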

How the data were processed

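RNA-seq was made from medial amygdala of 3 female and 4 male mice, 1 library per animal, so p-values measure the spread between these animals. The build GRCm39 and the tools TopHat2 2.2.1, cutadapt, DESeq2 1.26.0 and HTSeq 2.0.1 are named in the submitters' processing notes; roles, parameters, strand setting and annotation release are not given in the sources used here. The authors deposited raw counts per gene, per the file headers, and a normalized signal, those counts divided by DESeq2 size factors, which was not used in any test. The deposited log2 fold changes with their standard errors, the deposited statistic (a score per gene) and the deposited p-values of the authors' female against male test stand in the same table. Columns were tied to samples by the spreadsheet letters in the labels.

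Of 55414 genes, 6250 are listed without count values and were left out. Genes were filtered with filterByExpr (at least 10 counts in enough libraries, at least 15 in all). Libraries were scaled by TMM, and edgeR 4.0.16 (R 4.3.3) ran a robust quasi-likelihood test and Benjamini-Hochberg adjustment over 20420 genes, for male over female and for the slope per 10 points of percent DIMPLE with sex in the model. The SE is the log2 fold change divided by the square root of F. Log2 CPM used a prior count of 2. The fits were tested on simulated counts that gave each gene the same dispersion in both sexes. That setting does not cover the unequal spread of the 9 genes in females and males. Named genes are the 9 factors, up to 4 genes of lowest p and the first 3 markers of each list, and the 10 genes most like the 9, beside any list gene past the threshold; some that the rule also names are given only within list counts or are not reported here, and genes named for a DESeq2 call were chosen after their values were seen. The 9 genes and all lists were chosen with earlier results of these data known, and lists share members such as Slc17a7 and Bcl11b. Without a stated strand setting antisense reads cannot be told apart; antisense genes overlapping Lhx2 and Prdm8 held at most 1.28% of their reads. Other fits used DESeq2 1.42.0, limma-voom (limma 3.58.1), another scaling or filter, a replicate block, covariates and leaving out each library; fits with males of 1 column prefix were added after seeing the data. No pair of libraries of the same sex was a duplicate (chi-square over degrees of freedom at least 48.7), and pairs of a female and a male were not compared. With 29049604 to 46494588 counts per library, counting error matters only for low genes such as Emx1 in females.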

Additional observations from a re-analysis of the deposited data

Results flagged for a closer look

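Among the 4 males of 73 named genes, 4 values lay far from the other 3 by Dixon's criterion (0.829 for 4 samples), a test that flags about 1 in 20 groups by chance. None was one of the 9 pallial factors. Male replicate 3 stood apart for Mbp (4742 CPM against 1243 to 1792 in the other males), Mobp (1683 against 388 to 533) and Gfap (578 against 392 to 419), and male replicate 4 for C1qa (53.5 against 43.8 to 45.1).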

How the results depend on the processing

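The sign of the male over female estimate was the same for all 9 genes in every alternative run; 135 values kept their side of 0.05 and 18 passed it where the reported fit does not. Of the slope values 127 kept sign and side and 8 had the opposite sign: without male replicate 2 Emx1 (-0.65), Fezf2 (-0.61), Lhx2 (-0.65), Neurod1 (-0.48), Neurod2 (-0.30), Tbr1 (-1.06) and Prdm8 (-0.93), and Lhx2 without a low-count filter (-0.0024). Leaving out 1 library, the highest slopes of these genes were 1.20, 1.31, 0.33, 1.12, 1.42, 0.54 and 1.24 in the same order, all without male replicate 1. The causes were not tested. Genes called male over female numbered 5, and 12 without a low-count filter, 132 with DESeq2, 27 with a replicate block and 48 with the mb males alone, with a range of 4 to 26 when leaving out 1 library (26 without male replicate 2). Of the 9 factors 0 were called, 1 without a filter, 7 with DESeq2, 2 with a replicate block (Prdm8 and Bhlhe22), 4 with the mb males and 0 to 4 when leaving out 1 library. The slope called 0 genes, 15 without a filter and 9 with a replicate block. Leaving out 1 library moved the median pair correlation within 0.86 to 0.93, and within sex 0.61 to 0.89. Same-numbered females and males deviated together with r of 0.31, 0.17 and 0.03, where all female and male pairs ranged from -0.46 to 0.31. Male replicates 1 and 2 matched the female of their own number best, and male replicate 3 matched female replicate 2 best (0.30). So few libraries cannot decide whether the numbers pair the animals. Depth limits mainly Emx1, at 20 to 27 reads per female library.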
